A study of Rattus norvegicus with 9 samples.

Results

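Livers of rats given 7-P were compared with livers of control rats across 10432 named genes. The samples were 3 arrays titled as drug livers and 3 titled as control livers, 6 of the 9 arrays of the series. Genes were taken in when the mean log2 signal of a probe set, the set of short probes that reads 1 transcript, lay at or above the 40th percentile (2.82), which kept 10432 of the 14217 genes named on the array. The rule used no difference between groups.

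All rats were Wistar rats of 180 to 220 g, labelled male. The study held 36 rats, 12 in each of a control, a model and a drug group, and 3 rats of each group, drawn at random, were arrayed. Control rats carry no label beyond the group name. Drug rats are labelled with 7-P, a code name for a compound. The sources used here do not say what 7-P is, what was done to the model rats, whether the drug rats also had the model treatment, at what dose, for how long, at what age or at which hour livers were taken. The model livers are used below only as side values. Arrays are named by group and replicate number, and each replicate is a different rat.

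The liver runs many of its metabolic programmes on a daily rhythm. In the molecular clock, the activators Clock and Bmal1 switch on genes through E-box sequences, among them the Per and Cry repressors, which shut the activators down again, and the nuclear receptors Nr1d1 and Nr1d2 (REV-ERB alpha and beta), which repress Bmal1. The clock drives output factors, such as the D-box activators Dbp, Tef and Hlf and their rival repressor Nfil3, and through them bile acid, lipid and drug metabolism.

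The arrays differed in ways that the groups do not describe. The ratio of the signals at the 3' and 5' ends of Gapdh, a reading of how intact the RNA was that rises as the 5' end is lost, was 1.52, 3.14 and 3.07 in control 1, 2 and 3. It was 1.31, 9.20 and 8.71 in drug 1, 2 and 3. The means were 2.58 ± 0.915 (SD, n = 3) in control and 6.41 ± 4.42 (SD, n = 3) in drug arrays, and the groups overlapped through drug 1 (two-sided exact permutation p = 0.4, or 0.533 adjusted over 4 array measures). The smallest p that 3 against 3 arrays allow is 0.1. Trimmed mean signals before normalization ran from 34.1 to 80.4 in control and from 33.2 to 66.5 in drug arrays.

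Several transcripts that differ by sex went against the label in 7 of the 9 arrays. Xist, which coats and silences 1 X chromosome of female cells, had log2 signals of 0.63 in control 2 and 0.28 in drug 3, but 7.98 and 10.2 in control 1 and 3 and 9.0 and 11.51 in drug 1 and 2. The Y-linked Eif2s3y, under the 40th percentile, was high in control 2 (6.99) and drug 3 (7.17) alone, and at most 2.53 elsewhere. The male-specific hydroxylase Cyp2c11 read 11.3 and 12.1 in these arrays and 2.87 to 5.22 in the others. The Y-linked Uty, past the filter, did not divide the arrays this way. It read 6.80, 6.19 and 6.61 in control, 6.68, 6.61 and 6.63 in model and 6.71, 6.54 and 5.71 in drug livers. Uty was thus lowest in control 2 and drug 3, and the reason was not tested. By Xist, Eif2s3y and Cyp2c11, the control and drug groups each hold 1 array with male readings and 2 with female readings. Each of these groups also holds 1 array with a low Gapdh ratio, control 1 and drug 1. The 3 model arrays all had female readings, with Xist at 10.6 to 10.8. Arrays with like sex readings are set side by side below as 3 pairs: control 1 with drug 1, control 2 with drug 3 and control 3 with drug 2. The first pair also has like Gapdh ratios. The others do not (3.14 against 8.71 and 3.07 against 9.20), so their differences still hold the gap in RNA quality. Every result was also computed with control 2 and drug 3 left out, with control 1 and drug 1 left out, with the log2 Gapdh ratio as a term in the fit, and with each array left out in turn. Of the medians of 50 gene lists, 19 fell by over 1.5 times or changed sign without control 2 and drug 3, 10 without the pair of rats numbered 1, 26 with the Gapdh term, and 45 without at least 1 single array. Of 161 genes followed in this way, 80 did so without at least 1 single array. List medians below are thus descriptions of these 6 arrays. The hepatocyte transcripts Alb, Ttr and Serpina1 were among the brightest of all probe sets in each array.

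**Figure D1:**
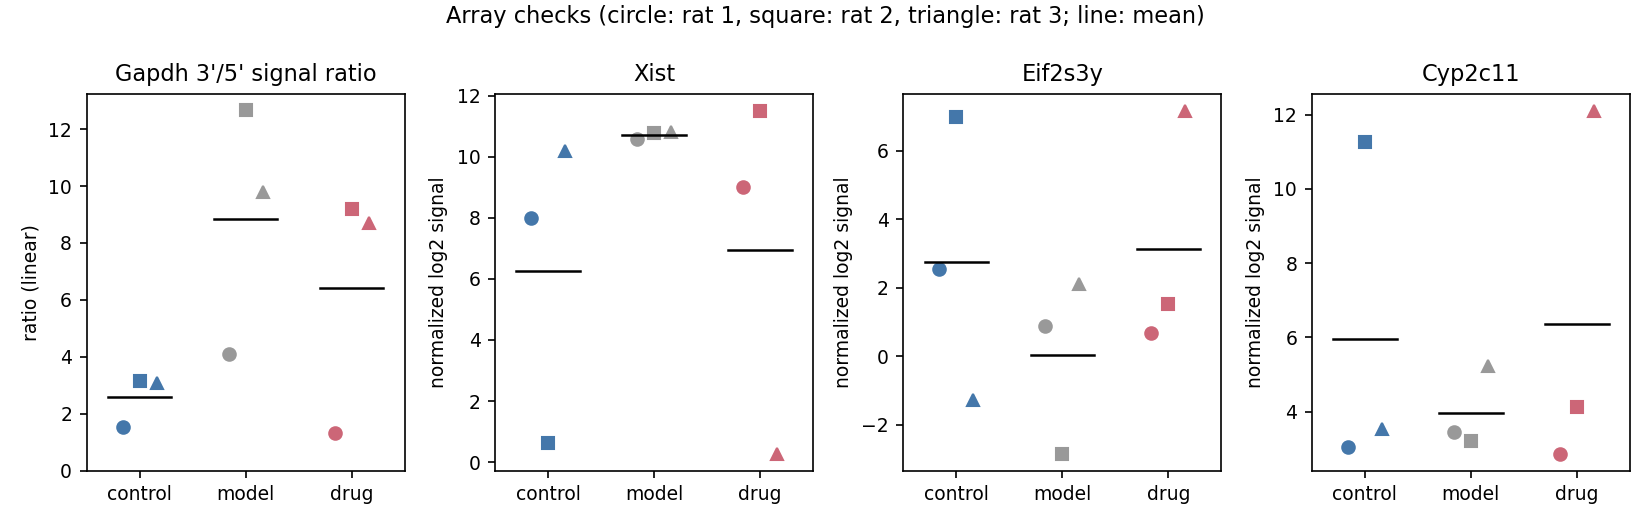
Array checks in each of the 9 livers: the linear Gapdh 3' to 5' signal ratio, and normalized log2 signals of Xist, Eif2s3y and Cyp2c11, with circles, squares and triangles for rats 1, 2 and 3 and a line at each group mean. Control 2 and drug 3 are the arrays low in Xist (0.63 and 0.28) and high in Cyp2c11 (11.3 and 12.1), and control 1 and drug 1 have the lowest Gapdh ratios of their groups.

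No gene passed the test in drug against control livers. Of 18625 probe sets, 0 (0%) had a Benjamini-Hochberg adjusted p under 0.05 in limma, and the smallest adjusted p was 0.676. Without adjustment, 1345 probe sets (7.22%) fell under 0.05, where chance alone gives 931. Of these, 781 (4.19%) were higher in drug livers and 564 (3.03%) lower. The 3 drug arrays lay all above or all below the 3 control arrays for 2335 probe sets (12.5%), 1127 higher (6.05%) and 1208 lower (6.49%). Counted by gene, with each gene read by its brightest probe set, 853 of 10432 genes (8.18%) had an unadjusted p under 0.05, 480 higher (4.6%) and 373 lower (3.58%). Groups did not overlap for 1484 genes (14.2%), 679 higher (6.51%) and 805 lower (7.72%). These shares are the background for every count of genes below. With the arrays left unnormalized, the median of all probe sets was -0.36. List medians were then -0.03 for fatty acid synthesis, 0.03 for macrophages, -0.20 for cytokines, -0.27 for the interferon response and -0.13 for pericentral genes. Relative to the median of all, these came to 0.33, 0.40, 0.16, 0.09 and 0.23. Taking off that median is itself a kind of centring, so the relative values are no check free of normalization. Differences are log2 differences of normalized signal, drug minus control, each with its limma standard error (SE), and their limma adjusted p-values lay at 0.676 or above. Higher and lower describe measured values and no passed test.

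Several clock genes were among the genes without overlap. The repressor transcripts Nr1d1, Nr1d2, Per2 and Per3 and the output factor Dbp were higher in every drug liver than in every control liver, by 2.55 to 5.46 on the log2 scale. The activator Bmal1, the repressor Cry1 and the D-box repressor Nfil3 were lower in every drug liver, by 1.43 to 1.89. Of 13 measured genes of the core loop, groups did not overlap for 5 on the higher side, against 6.51% of all named genes, and for 2 on the lower side, against 7.72%. Per3 is 1 of the 5, but its control mean lay under the filter, which it passed only through its drug and model values. Its place in the count is thus not independent of the filter. Csnk1e is also among the 5, though its other probe set past the filter was lower without overlap. Unadjusted p-values under 0.05 were reached by 4 higher and 2 lower core genes, and by 0 after adjustment.

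Nr1d1, the heme-binding receptor that represses Bmal1, had log2 signals of 2.12, 3.70 and 4.37 in control 1, 2 and 3 and 6.47, 6.39 and 7.38 in drug 1, 2 and 3. Every drug liver stood clear of the highest control liver, and the means were 3.4 ± 1.16 and 6.75 ± 0.548 (SD, n = 3 each). The difference was 3.35 (SE 0.594, limma adjusted p = 0.676, and 0.079 to 1.0 over the alternatives). It was 3.18 without control 2 and drug 3, 2.85 without the pair of rats numbered 1, and 3.19 with the Gapdh term.

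Its paralog Nr1d2 read 4.87, 4.01 and 5.54 in the control livers and 7.71, 7.56 and 7.89 in the drug livers, a difference of 2.92 (SE 0.559). The drug livers were close together and the control livers more widely spread, with no overlap. The other 2 probe sets of Nr1d2 were also higher in drug livers, by 2.43 and 2.47, the latter under the filter.

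Per2, a repressor that enters the nucleus with the Cry proteins, read 2.98, 4.32 and 4.26 against 5.78, 5.54 and 7.88, a difference of 2.55 (SE 0.591). Drug 3 was the highest and set the size in part, since the difference was 2.04 without control 2 and drug 3. A dimmer Per2 probe set, under the filter, differed by 0.11. Per3, a clock component closely related to Per2, read -0.06, 0.04 and 0.55 in the control livers and 4.68, 5.47 and 6.75 in the drug livers. The control livers lay under the filter for Per3, near the floor of the array, so its difference of 5.46 (SE 1.15) is not an exact size. Its other probe set, under the filter in its mean, differed by -0.54. Per3 was 4.83 higher without control 2 and drug 3 and 5.82 higher without the pair of rats numbered 1. Per1 overlapped between the groups (4.27, 4.07 and 4.77 against 5.19, 4.73 and 2.02), and drug 3 alone set its sign: the difference was -0.39 with all arrays and 0.59 without drug 3.

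Bmal1, the activator that pairs with Clock, read 6.38, 5.46 and 5.45 in the control livers and 4.62, 4.49 and 2.51 in the drug livers. The difference was -1.89 (SE 0.539), -1.36 without control 2 and drug 3 and -1.21 without drug 3 alone. Drug 3 was the lowest for Bmal1 and the highest for Nr1d1, Per2 and Per3. Cry1, which blocks Clock and Bmal1 at their target genes, read 5.74, 6.46 and 5.85 against 3.86, 5.06 and 4.77, a difference of -1.45 (SE 0.388). For Cry1 the highest drug liver lay below the lowest control liver, and the difference was -1.33 and -1.24 without the array pairs named above. Clock itself, at 6.42, 6.15 and 6.01 against 5.64, 6.15 and 6.26, overlapped, with a difference of -0.18 that turned to 0.13 without control 1 and drug 1. Differences of the other core genes with overlapping groups were -0.53 for the Clock paralog Npas2 and -0.30 for the receptor Rora, which activates Bmal1. The repressor Cry2 differed by 0.34 on its brightest probe set and by -0.73 on the other, both with overlap. The kinase Csnk1d, which marks Per proteins for breakdown, differed by 0.13 on its brightest probe set, while its other 4 probe sets past the filter were lower, by -0.64, -0.55, -0.25 and -0.04, and those at -0.55 and -0.25 did not overlap. The kinase Csnk1e did not overlap (0.85, or 0.53 without drug 2), but its other probe set past the filter went the other way (-0.58), also without overlap.

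The promoters of 4 of these genes are shown because clock factors act through short sites near gene starts. RefSeq windows of 250 bases before the start, on build GRCr8, were found for 20 of the 26 measured core and output genes, and were searched on both strands for the E-box CACGTG, its variant CACGTT, the D-box TTATGTAA and the receptor site TAGGTCA, to which Nr1d1 and Rora bind. None of these motifs contains another. Capitals mark the matches, and each window runs 5' to 3' along the gene, up to the base before the start. Nr1d1 (chr10:84229455-84229704, minus strand) holds an E-box, and so does Tef (chr7:115206577-115206826, plus strand). Per2 (chr9:99496994-99497243, minus strand) holds a D-box and, nearer the start, an E-box variant. Bmal1 (chr1:176766078-176766327, plus strand) holds a receptor site beside its start.
Nr1d1: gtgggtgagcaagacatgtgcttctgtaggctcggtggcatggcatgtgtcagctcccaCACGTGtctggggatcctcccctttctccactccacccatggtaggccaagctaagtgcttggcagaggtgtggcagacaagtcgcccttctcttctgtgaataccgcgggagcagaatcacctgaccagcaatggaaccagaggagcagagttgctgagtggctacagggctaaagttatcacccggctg
Tef: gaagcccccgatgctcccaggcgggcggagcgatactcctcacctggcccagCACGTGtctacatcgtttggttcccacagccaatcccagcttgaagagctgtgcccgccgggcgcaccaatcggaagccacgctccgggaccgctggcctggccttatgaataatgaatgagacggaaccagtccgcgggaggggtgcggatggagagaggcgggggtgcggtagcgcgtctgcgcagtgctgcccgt
Per2: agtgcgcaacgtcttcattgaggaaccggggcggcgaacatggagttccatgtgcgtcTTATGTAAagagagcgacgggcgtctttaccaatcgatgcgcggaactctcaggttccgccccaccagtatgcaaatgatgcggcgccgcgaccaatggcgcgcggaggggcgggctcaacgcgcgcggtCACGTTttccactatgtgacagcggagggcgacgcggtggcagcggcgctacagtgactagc
Bmal1: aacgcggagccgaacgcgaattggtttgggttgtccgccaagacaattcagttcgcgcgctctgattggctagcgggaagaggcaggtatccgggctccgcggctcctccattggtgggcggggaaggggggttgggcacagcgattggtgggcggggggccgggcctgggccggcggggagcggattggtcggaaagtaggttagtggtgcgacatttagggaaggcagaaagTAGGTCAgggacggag
Among 33469 windows of the same length, 5.59% held CACGTG, 4.07% CACGTT, 0.828% TTATGTAA and 2.26% TAGGTCA. Of the 20 clock genes with a window, CACGTG was found in 3 (Nr1d1, Tef and Bhlhe40), CACGTT in 3 (Per2, Cry2 and another start of Nr1d1), TTATGTAA in 1 (Per2) and TAGGTCA in 2 (Bmal1 and Por). Of the genes with CACGTG, Nr1d1 and Tef were higher in drug livers without overlap, while Bhlhe40 overlapped and differed by 0.47, or by -0.26 without control 2. A match describes the letters only.

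The D-box factors showed the same direction as Nr1d1. Dbp, a strongly rhythmic activator of liver cytochrome P450 genes, read 4.0, 4.08 and 3.34 in the control livers and 7.74, 5.30 and 7.75 in the drug livers. The difference was 3.12 (SE 0.811), with drug 2 the nearest to the control livers. Tef read 4.48, 5.16 and 5.40 against 6.42, 5.45 and 6.27, a difference of 1.04 (SE 0.385) in which drug 2 and control 3 nearly met. Hlf, the third factor of this family, read 5.11, 6.15 and 6.06 against 6.37, 6.38 and 7.26, a difference of 0.90 (SE 0.393). Nfil3, which binds the same D-boxes and represses, read 7.88, 7.67 and 8.26 against 6.08, 7.35 and 6.10, a difference of -1.43 (SE 0.349). Drug 2 was thus the liver nearest to control for Dbp, Tef and Nfil3 alike. On these probe sets, the activators that share these boxes were higher in the drug livers while the repressor was lower. Other probe sets past the filter differed less, by 0.58 for Tef and by 0.63 and 0.08 for Hlf, all with overlap. Probe sets under the filter differed by 2.49 for Tef and 1.79 for Hlf.

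Other clock outputs overlapped between the groups. Of 13 measured output genes, 4 were higher and 9 lower, with a median of -0.34 against -0.03 for all named genes, and groups did not overlap for 3 higher (Dbp, Tef and Hlf) and 1 lower (Nfil3). The median was -0.09 with the Gapdh term and -0.11 without drug 2, and the pair of control 1 and drug 1 gave 0.24. The vasopressin receptor Avpr1a was -1.05, through drug 2 and 3 (7.26 and 7.30, with drug 1 at 8.92, inside the control range of 8.69 to 9.22). The G protein regulator Rgs16 was -1.18 (-0.35 without control 3), the tetraspanin Tspan4 -0.74, the NAD-salvage enzyme Nampt -0.40, the heme synthesis enzyme Alas1 -0.34 and the P450 reductase Por -0.32, all with overlap. Nampt turned to 0.25 with the Gapdh term.

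Some of these transcripts were widely spread in the model livers and others were not. Nr1d1 read 5.14, 3.85 and 5.30 there, Nr1d2 7.87, 5.48 and 6.80, and Per3 5.16, 0.12 and 4.39. Dbp read 5.48, 2.96 and 2.68, so that 2 of 3 model livers lay below every control liver. Per2 read 5.33, 5.01 and 5.06, above every control liver and below every drug liver, and Nfil3 read 7.34, 7.11 and 7.34, both close together. Because the clock moves with the time of day, the hour of collection bears on these genes. It was not given, and its part in the differences was not tested.

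**Figure D2:**
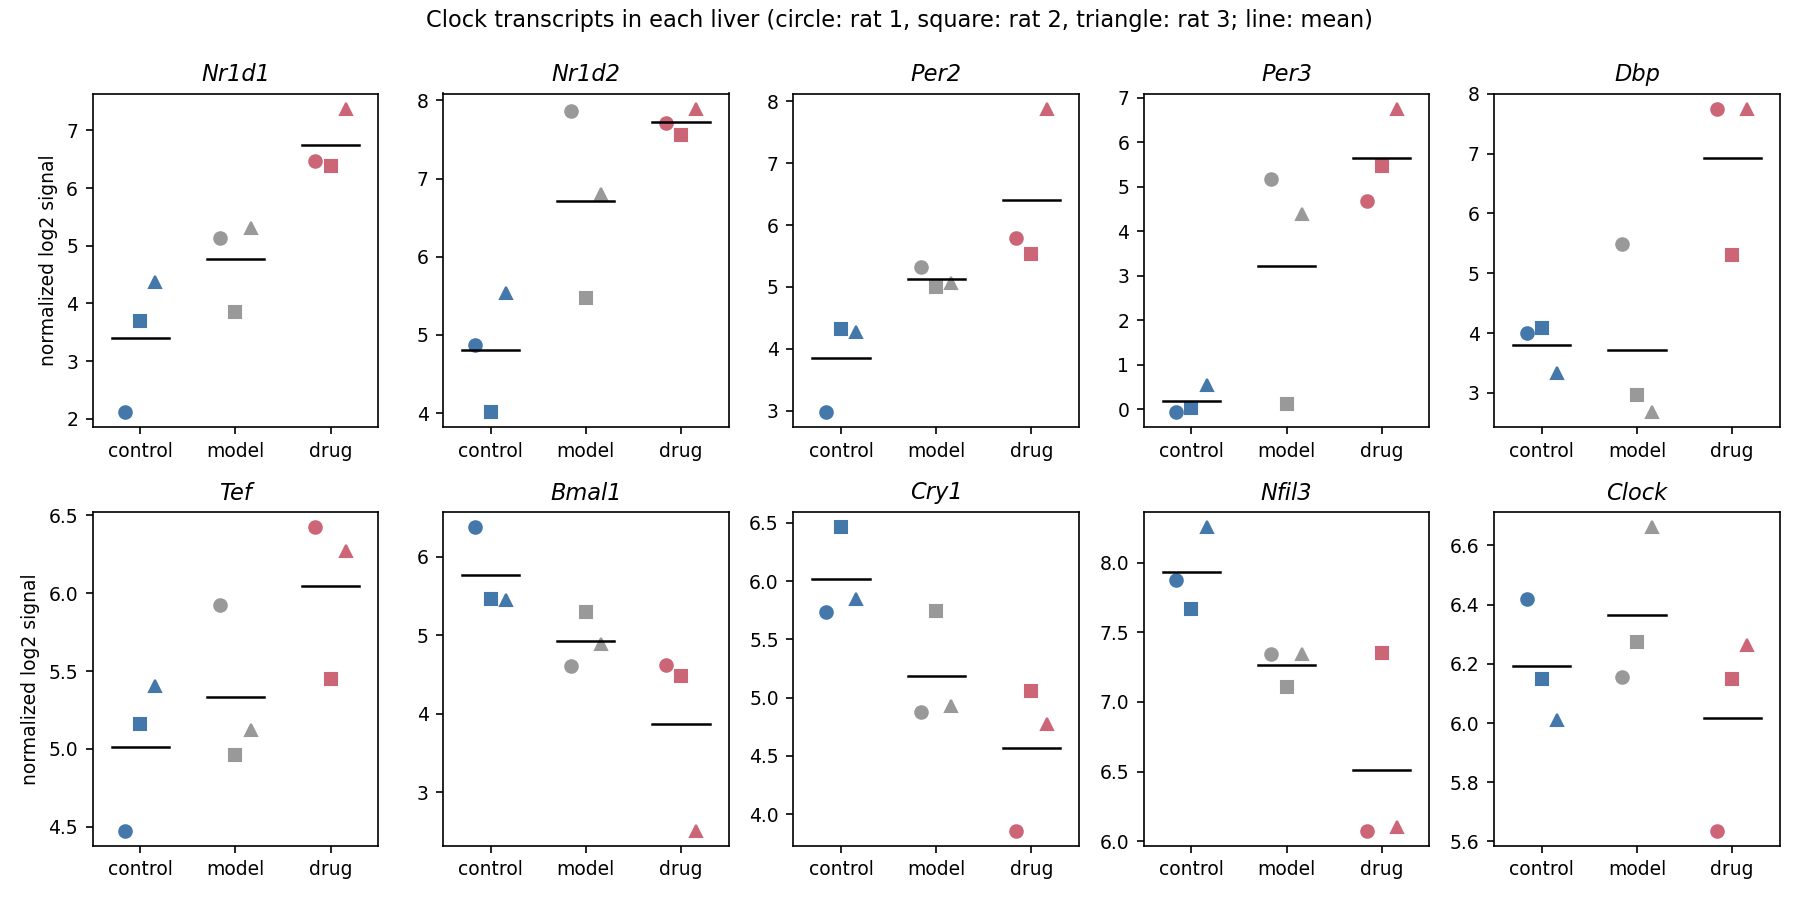
Normalized log2 signal of 10 clock transcripts in each control, model and drug liver, with circles, squares and triangles for rats 1, 2 and 3 and a line at each mean; each panel has its own scale. The drug livers lie above all control livers for Nr1d1, Nr1d2, Per2, Per3, Dbp and Tef, below them for Bmal1, Cry1 and Nfil3, and overlap them for Clock.

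Beyond the clock, the genes with the smallest unadjusted p among those without overlap were read, 12 in each direction. Leaving out control or drug arrays could not change their sign, since all drug livers lay on 1 side of all control livers. With the Gapdh term, all of these genes kept their sign. Rbm3, an RNA-binding protein known to be induced by cooling and to be rhythmic, read 5.62, 5.37 and 5.57 in the control and 6.69, 7.05 and 6.98 in the drug livers, a difference of 1.38 (SE 0.282). The spread inside each group was far less than the gap between them. The splicing factor Prpf39 was higher by 1.79 (SE 0.357), from 5.04, 4.90 and 5.77 to 6.34, 7.53 and 7.22. The zinc finger gene Zfp758 was higher by 1.83 and the antisense RNA Thumpd3-as1 by 2.28, though the array's strand reading for the latter was not checked. The myeloid surface receptors Siglec5 and Igsf6 were higher by 1.68 and 1.72. The helicase Ddx60, an antiviral sensor, was higher by 2.37, the glucosylceramidase Gba2 by 2.57 and the MHC class I pseudogene H2-Q7-ps1 by 4.41. The control means of Igsf6, Ddx60, Gba2 and H2-Q7-ps1 lay under the filter, which they passed only through their drug and model values. Their sizes are thus not exact, and their place among the genes without overlap is not independent of the filter. A class I pseudogene can also share probes with its relatives.

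On the lower side, Apoa4, an apolipoprotein of triglyceride-rich particles that rises in fatty and fasted liver, read 10.34, 9.67 and 10.66 in the control and 8.87, 8.91 and 9.02 in the drug livers. The drug livers were within 0.2 units of each other and the difference was -1.29 (SE 0.255), or -1.61 without control 2 and drug 3. Fkbp4, a co-chaperone of Hsp90 and steroid receptors, read 9.35, 8.77 and 8.92 against 8.21, 7.49 and 7.40, a difference of -1.32 (SE 0.318). Gpr182, a receptor of sinusoidal endothelium, read 6.34, 6.50 and 6.73 against 5.58, 5.10 and 5.29, a difference of -1.20 (SE 0.270). The p53 target Phlda3 was -1.60 (SE 0.371), the endocytic adaptor Epn1 -1.54, the peroxisomal thioesterase Acot4 -1.45, the mitochondrial ubiquitin ligase Mul1 -1.26 and the metalloproteinase Mmp19 -1.19. Pm20d2 was -1.46. Kiaa1755 was -2.80 with its drug mean under the filter, which it passed only through its control and model values. Its place here is thus not independent of the filter either. For Tmem276 (-1.15) 2 of 4 probe sets were higher in drug livers.

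**Figure D3:**
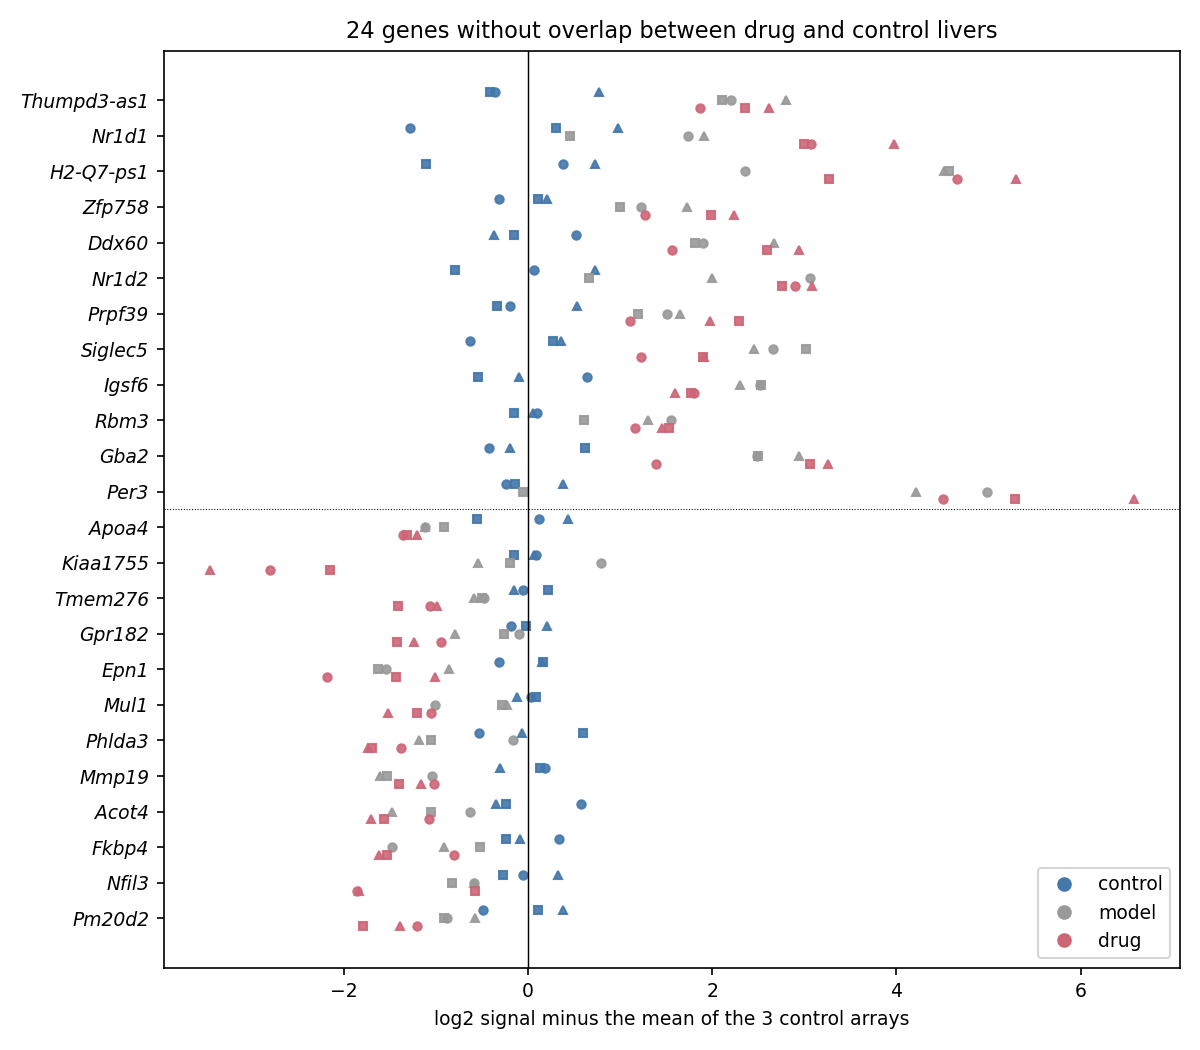
The 24 genes with the smallest unadjusted p among those without overlap, 12 higher and 12 lower, as log2 signal minus the mean of the control arrays, in control (blue), model (grey) and drug livers (red), with circles, squares and triangles for rats 1, 2 and 3. Per3 and H2-Q7-ps1 have the widest gaps on the higher side and Kiaa1755 on the lower side, and their low group lies under the filter; model livers lie mostly on the drug side of the control livers.

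Fatty acid synthesis genes were higher in drug livers by their median, unevenly between arrays. Of 24 measured genes of fatty acid and triglyceride synthesis, 15 were higher and 9 lower, with a median of 0.48 against -0.03 for all named genes, and groups did not overlap for 4 higher and 0 lower. Mid1ip1, which binds and activates acetyl-CoA carboxylase, read 8.03, 8.03 and 8.23 in the control and 8.91, 9.0 and 10.07 in the drug livers, a difference of 1.23 (SE 0.301). Every drug liver was above every control liver and drug 3 was the highest. Srebf1, the transcription factor that drives lipogenesis under insulin, read 8.48, 8.95 and 9.17 against 9.35, 9.63 and 10.75, a difference of 1.04 (SE 0.379). The citrate lyase Acly was higher by 1.09 and the phosphatidate phosphatase Lpin2 by 0.69, both without overlap. The carbohydrate sensor Mlxipl (1.54), the synthase Fasn (1.15), the carboxylase Acaca (0.84) and the elongase Elovl6 (0.83) overlapped, while Elovl2 (-0.82), Gpam (-0.60) and the desaturase Scd (-0.31) were lower with overlap. The list median rested on control 2 and drug 3, the arrays with male readings: their pair gave 1.24, the other pairs 0.12 and 0.04. It was 0.17 without these arrays, -0.0007 without control 2 and 0.28 with the Gapdh term. Without control 2 and drug 3, Mid1ip1 came to 0.82, Srebf1 to 0.67, Fasn to 0.34 and Acaca to 0.24.

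Fatty acid oxidation genes pointed down. Of 23 measured genes 5 were higher and 18 lower, with a median of -0.50, and groups did not overlap for 0 higher and 3 lower. These were the short-chain dehydrogenase Acads (-0.75, SE 0.299, or -0.48 without drug 2), the omega-hydroxylase Cyp4a3 (-0.77, or -0.38 without control 2 and drug 3) and the trifunctional protein subunit Hadha (-0.60). The carnitine acyltransferase Cpt2 read 7.50, 7.27 and 7.34 in the control livers and 7.28, 5.18 and 5.54 in the drug livers. Drug 1 lay in the control range for Cpt2, and the low values were in drug 2 and 3, the arrays with the highest Gapdh ratios of this comparison. The coactivator Ppargc1a went the other way, at 1.87, with control 2 alone at 0.61 and the other control livers at 4.41 and 3.45, and at 0.77 without control 2. The list median was -0.21 with the Gapdh term and -0.24 without drug 3. It was -0.09 in the pair of control 1 and drug 1, -0.65 in that of control 2 and drug 3 and -0.59 in that of control 3 and drug 2. The part of RNA quality in it was not tested further.

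Lipid handling held several lower genes without overlap. The droplet coat protein Plin2, which follows stored lipid, read 9.49, 9.31 and 9.48 in the control and 8.72, 8.53 and 8.95 in the drug livers, a difference of -0.69 (SE 0.285). It was -0.85 without control 2 and drug 3. Of the 2 Plin2 probe sets past the filter, however, 1 was higher in drug livers. The monoglyceride lipase Mgll (-0.98) and the droplet protein Cidec (-0.57) did not overlap either. Of 15 measured genes of lipid droplets and lipolysis, groups did not overlap for 0 higher and 3 lower (20%, against 14.2% of all named genes). Of 23 genes of apolipoproteins and lipoprotein handling, 7 were higher and 16 lower, with a median of -0.14, which was -0.09 with the Gapdh term and -0.08 without control 1, and 5 did not overlap, all lower. These were Apoa4, the HDL protein Apoa1 (-0.62), the HDL receptor Scarb1 (-0.47, or -0.12 without control 2 and drug 3), the hepatic lipase Lipc (-0.34, or -0.22 without drug 2) and the cholesterol acyltransferase Lcat (-0.21). The cholesterol synthesis list (20 genes, 6 higher and 14 lower, median -0.19) had no common direction over arrays: the pair of control 2 and drug 3 gave -0.92, the others 0.17 and 0.30, and the median was 0.22 without that pair and 0.44 without drug 3. Insig2, which holds back cholesterol synthesis and has been described as an Nr1d1 target, was the 1 member without overlap (8.61, 8.85 and 8.03 against 7.60, 6.74 and 8.01), where control 3 and drug 3 nearly met.

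In bile acid metabolism, the receptor Nr0b2 (SHP), which represses bile acid synthesis, read 5.10, 5.77 and 2.93 in the control and 6.89, 6.29 and 7.65 in the drug livers. The groups did not overlap, control 3 was far below the rest and the difference was 2.34 (SE 0.652). It was 1.5 without control 3, 2.57 without control 2 and drug 3 and 2.61 without the pair of rats numbered 1. Cyp7a1, the rate-limiting enzyme of bile acid synthesis, was higher with overlap (9.45, 10.66 and 9.06 against 10.11, 10.91 and 11.49, a difference of 1.12, SE 0.500). The sterol 12-hydroxylase Cyp8b1 was -0.77 with overlap, or -0.23 without control 2 and drug 3. The 14 genes of bile acid synthesis and conjugation had a median of 0.06, which was -0.18 with median centring. Of 17 bile acid and organic anion transporters 0 were free of overlap. The export pump Abcc3 was 2.39 higher with overlap (1.72, 1.92 and 4.71 against 5.29, 5.94 and 4.31), its control mean under the filter.

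Among regulators of drug metabolism, the pregnane X receptor Nr1i2 read 6.88, 6.35 and 6.48 in the control and 7.03, 7.46 and 7.44 in the drug livers, a difference of 0.74 (SE 0.251) without overlap. The constitutive androstane receptor Nr1i3 was higher by 1.16 with overlap, led by drug 3 (6.77), and by 0.61 without that array. Of 23 sex-neutral phase I genes 14 were higher and 9 lower, with a median of 0.05 that scaling to 1 trimmed mean turned to -0.12, and 3 did not overlap, Nr1i2, the omega-hydroxylase Cyp4f4 (0.66) and the monooxygenase Fmo5 (0.24). Cyp1a1, the enzyme induced through the dioxin receptor, was -2.04 with its drug mean under the filter and drug 1 (4.40) at the control level. The steroid dehydrogenase Hsd17b2 read 8.31, 8.32 and 8.82 against 11.53, 9.30 and 10.54, a difference of 1.97 (SE 0.503), and model livers lay between 7.59 and 8.65. Drug livers were above all other livers for this gene. It belongs to the 17 measured male-predominant liver genes, whose median was 0.23 over all arrays and -0.39, 0.48 and 0.06 in the pairs of drug 1, 2 and 3, with 0 other members free of overlap. This median had no settled sign: it was -0.75 with the Gapdh term, -1.41 without drug 3 and 1.89 without control 2, the arrays with male readings. The 17 female-predominant genes had 0 members without overlap and a median of -0.07, which was 0.22 with the Gapdh term and -0.81 without control 2.

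Mitochondrial genes were lower on the whole. Of 66 measured subunits of oxidative phosphorylation, 10 were higher and 56 lower, with a median of -0.34. Groups did not overlap for 0 higher and 19 lower, against 7.72% lower among all named genes. The complex I subunit Ndufb10 read 8.85, 9.11 and 9.14 in the control and 8.58, 7.81 and 7.89 in the drug livers, a difference of -0.94 (SE 0.277). Drug 1 was the nearest to the control livers here, as it was for Ndufb9 (10.35, 10.41 and 10.34 against 10.04, 9.29 and 9.71) and Ndufv1 (8.66, 8.66 and 8.48 against 8.39, 7.54 and 7.98). The ATP synthase subunit Atp5f1d was -0.64 (SE 0.232). Pair medians were -0.09 for drug 1, -0.31 for drug 3 and -0.60 for drug 2, and the median was -0.24 with the Gapdh term and -0.22 without drug 2. Other abundant housekeeping transcripts leaned the same way: 32 cytosolic ribosomal protein genes had a median of -0.20, which was 0.01 with the Gapdh term, and 30 proteasome subunits -0.22, which was -0.07 with it. Of 21 antioxidant and thiol redox enzymes 2 were higher and 19 lower (median -0.41, and -0.25 with the Gapdh term), and the peroxiredoxin Prdx6 did not overlap (-0.79).

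Heat shock chaperones were lower too. Of 18 measured genes 3 were higher and 15 lower, with a median of -0.33, which was -0.25 with the Gapdh term and -0.21 without drug 2. Groups did not overlap for 0 higher and 3 lower (16.7%, against 14.2% of all named genes). Besides Fkbp4, the cytosolic chaperone Hsp90ab1 (10.58, 10.26 and 10.45 against 10.23, 8.69 and 9.11, a difference of -1.09, SE 0.421) and the Hsp110 member Hsph1 (7.87, 7.72 and 7.77 against 7.49, 6.82 and 6.74, a difference of -0.77, SE 0.243) did not overlap. Drug 1 was again the closest to control. The pairs gave -0.29, -0.25 and -0.47, so the median was below 0 in each of them. The small heat shock protein Hspb1 (0.58) and the regulator Hsf1 (0.32) were higher with overlap. Of 24 genes of folding in the endoplasmic reticulum, 10 were higher and 14 lower, with a median of -0.06.

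**Figure D4:**
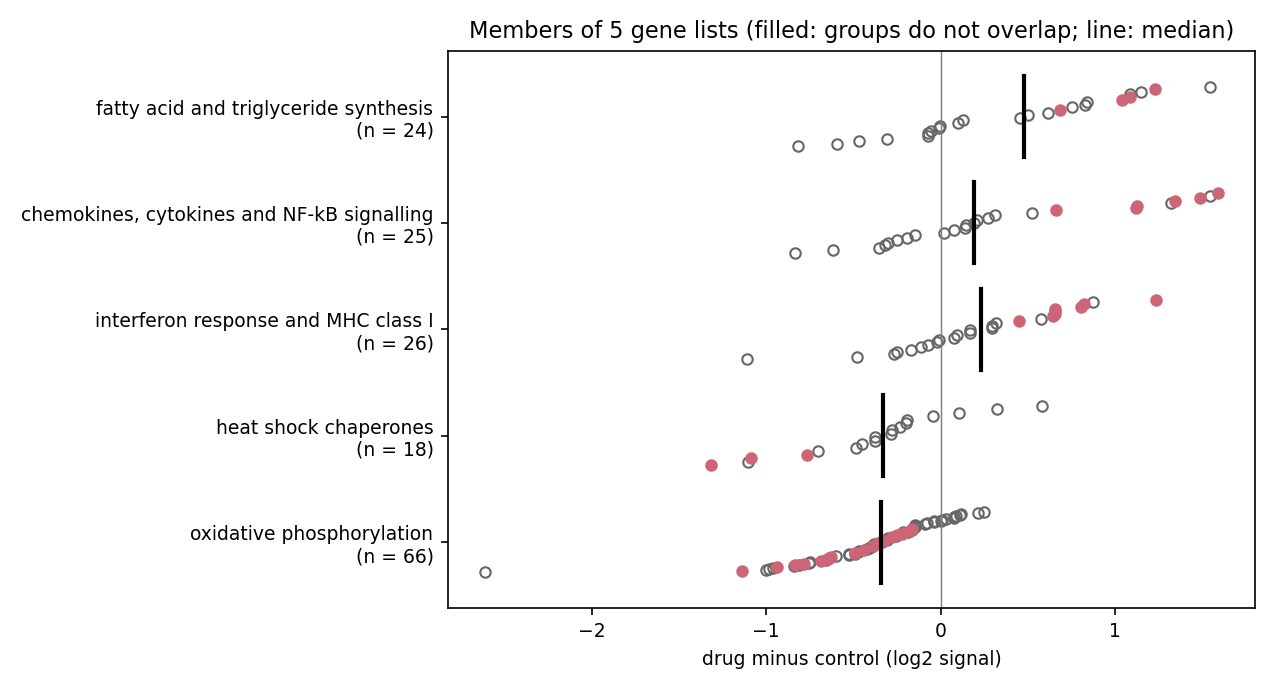
Log2 difference, drug minus control, of each measured gene in 5 lists; filled points are genes whose control and drug livers do not overlap, and a line marks the list median. Filled points lie to the right in fatty acid synthesis (4), cytokines (6) and interferon response (8) and to the left in heat shock chaperones (3) and oxidative phosphorylation (19).

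Cytokine and interferon genes without overlap were higher in drug livers. Of 25 measured genes of chemokines, cytokines and NF-kB signalling 17 were higher and 8 lower (median 0.19, or 0.09 with median centring and 0.08 without control 2 and drug 3), and groups did not overlap for 6 higher and 0 lower. Il18, an inflammasome cytokine, read 5.0, 4.28 and 3.84 in the control and 5.56, 6.06 and 6.29 in the drug livers, a difference of 1.59 (SE 0.405). Nfkbiz, a nuclear cofactor of NF-kB, read 5.71, 5.54 and 4.57 against 6.46, 7.07 and 6.75, a difference of 1.49 (SE 0.335). Each drug liver was above each control liver for both genes, and the model livers read 6.89 to 7.34 for Nfkbiz. The cytokine Il1b was 1.12 higher (4.80, 3.81 and 4.46 against 5.37, 5.46 and 5.61), the chemokine Ccl6 1.34, Ccl4 1.13 (0.68 without control 2 and drug 3) and Cxcl11 0.66. The chemokines Ccl3 (-0.83, drug mean under the filter) and Cxcl10 (-0.62) were lower with overlap.

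Of 26 genes of interferon response and antigen presentation 17 were higher and 9 lower (median 0.23, or 0.02 with median centring), and groups did not overlap for 8 higher and 0 lower, against 6.51% and 7.72% of all named genes. Usp18, which removes Isg15 from proteins, was higher by 1.24 (SE 0.518, and 0.76 without drug 3), the interferon-induced gene Ifi44 by 0.82, the transcription factors Irf8 by 0.81, Irf7 by 0.66 and Irf9 by 0.45, Stat2 by 0.65, the GTPase Mx1 by 0.65 and the ubiquitin-like Isg15 by 0.64. The drug livers read 6.41, 6.88 and 6.95 for Isg15 and the control livers 5.65, 6.28 and 6.37, so that drug 1 and control 3 nearly met. Model livers lay at 5.64 to 5.86 for Isg15, within or below the control range. The sensors and effectors Ifih1 (-1.11) and Ifit1 (-0.48) were lower with overlap.

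Macrophage transcripts were higher in most cases. In bulk liver, fewer cells of a type and less RNA per cell cannot be told apart. Of 20 Kupffer cell and macrophage markers 17 were higher and 3 lower, with a median of 0.38. Groups did not overlap for 2 higher and 0 lower (10%, against 14.2% of all named genes). The summed linear signal of the list ran from 2149 to 3491 in control and from 2797 to 4409 in drug livers. Cd163, the haptoglobin-hemoglobin scavenger receptor of tissue macrophages, read 4.87, 4.73 and 4.53 against 5.91, 5.75 and 6.0, a difference of 1.18 (SE 0.253). The drug and control livers were each close together, and the difference was 1.13 without control 2 and drug 3. The adhesion receptor Adgre1 (F4/80) was 0.99 without overlap, or 0.53 without control 1 and drug 1, and the Kupffer cell lectin Clec4f 0.62 with overlap. The pan-leukocyte phosphatase Ptprc (CD45), counted with the T and natural killer cell markers, read 4.52, 3.72 and 4.26 against 5.42, 5.58 and 5.64. Its difference was 1.38 (SE 0.293). The pair of control 3 and drug 2 went the other way for the macrophage list (-0.25, with 0.75 and 0.61 in the other pairs), and the median was 0.04 without drug 1. The 21 T and natural killer cell markers had a median of 0.38, which was -0.07 without control 2 and drug 3. Of 6 neutrophil markers 5 were higher, with summed signals of 180 to 376 in control and 213 to 1534 in drug livers, the highest in drug 2, and 0 were free of overlap. Drug 1 and drug 3 (230 and 213) lay in the control range. The list median was 0.57 over all arrays and -0.16 without drug 2.

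Vascular and matrix transcripts were lower in part. Of 19 sinusoidal endothelial markers 6 were higher and 13 lower (median -0.22, but -0.05 with the Gapdh term and -0.05 without drug 2), and 4 did not overlap, all lower: Gpr182, the vascular phosphatase Ptprb (-0.98, SE 0.331), the BMP co-receptor Eng (6.94, 7.03 and 6.52 against 5.82, 5.85 and 6.04, a difference of -0.92, SE 0.297) and the ligand Bmp2 (-0.58, or -0.34 without drug 3). Summed over the list, control livers read 1355 to 1493 and drug livers 1140 to 1338, without overlap. The scavenger receptors Stab2 (0.04) and Stab1 (0.80) of the same cells were not lower. Of 23 stellate cell and matrix markers 5 were higher and 18 lower (median -0.25, or -0.15 without control 2 and drug 3). Groups did not overlap for 4, all lower (17.4%, against 14.2% of all named genes). These were the collagens Col4a1 (-0.90) and Col1a2 (-0.50), the matrix protein Sparc (-0.75) and the receptor Pdgfrb (-0.60). Lox (1.54, control mean under the filter) and Pdgfra (0.77) were higher with overlap. The 20 hepatocyte markers summed to 61244 to 62773 in control and 59217 to 62284 in drug livers, with a median difference of -0.10.

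Zonation and red cell genes gave smaller groups. Of 14 pericentral genes 10 were higher and 4 lower, with a median of 0.34, which was 0.09 without control 3 and 0.19 with the Gapdh term. The pairs gave 0.14, 0.32 and 0.42. Glutamine synthetase (Glul), the marker of the cells around the central vein, read 9.39, 9.27 and 9.15 against 9.60, 10.56 and 9.90, a difference of 0.75 (SE 0.270) without overlap, or 0.48 without drug 2. Of the 3 Glul probe sets past the filter, 2 were higher in drug livers. The cytokine Lect2 was 0.39 without overlap. The 14 periportal genes had a median of -0.07, from -0.38 to 0.08 with 1 array left out. Among them, the urea cycle enzyme Ass1 read 12.18, 12.08 and 12.01 against 11.64, 10.75 and 11.35, a difference of -0.84 (SE 0.244) without overlap. Histidase (Hal) was -1.13 without overlap. Of 5 erythroid markers 4 were lower: the heme synthesis enzyme of red cells Alas2 was -1.22 without overlap, and Hbb read 10.74, 10.10 and 11.32 against 10.94, 8.89 and 8.25. The transferrin receptor Tfrc, which many cell types carry, was the member that was higher (7.06, 7.04 and 6.95 against 7.34, 8.23 and 7.99, a difference of 0.84, SE 0.285).

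Growth hormone signalling and p53 target genes were mostly lower. Of 16 genes of the growth hormone and IGF axis 4 were higher and 12 lower (median -0.46, and -0.35, -0.43 and -0.74 in the pairs). Groups did not overlap for 0 higher and 2 lower (12.5%, against 14.2% of all named genes). Igfals, the subunit that holds IGFs in circulation, read 8.82, 9.71 and 9.45 against 8.52, 8.29 and 8.44, a difference of -0.91 (SE 0.295), and the feedback inhibitor Socs2 was -1.15 (SE 0.439, or -0.68 without drug 3), both without overlap. Igf1 itself differed by 0.02, and its 3 probe sets did not go 1 way. Of 19 p53 targets and apoptosis regulators 6 were higher and 13 lower (median -0.17, or -0.05 after scaling to 1 trimmed mean). The pair of control 1 and drug 1 gave 0.09. Groups did not overlap for 1 higher and 3 lower (21.1%, against 14.2% of all named genes). The cell cycle inhibitor Cdkn1a (p21) read 6.13, 7.45 and 6.78 against 4.42, 5.63 and 5.67, a difference of -1.55 (SE 0.481), and did not overlap, like Phlda3. The 22 cell cycle genes had a median of -0.19, which was 0.07 without control 2 and drug 3, and 0 members without overlap.

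Further liver programmes had few or 0 members without overlap, and medians from -0.16 to 0.18. Of 24 acute phase proteins 10 were higher and 14 lower (median -0.09, and 0.04 with the Gapdh term), of 24 coagulation and complement factors 13 were higher and 11 lower (0.07, and -0.24 with median centring), and of 21 genes of glucose metabolism and insulin signalling 13 were higher and 8 lower (0.11, and -0.22 with median centring). Within them, the interleukin receptor Il1r1 was 0.86 higher without overlap (7.59, 7.76 and 7.71 against 7.91, 9.07 and 8.64). The phosphofructokinase Pfkl was -1.01 without overlap (5.66, 6.37 and 6.07 against 4.39, 5.50 and 5.19). Of 21 lysosomal genes 8 were higher and 13 lower (-0.16, or -0.05 without control 3), and of 22 conjugation enzymes and NRF2 targets 10 were higher and 12 lower (-0.03), with the glutathione transferase Gstt1 the 1 member without overlap (-0.83). Of 16 immediate early genes, which respond within minutes to stimuli and handling, 12 were higher and 4 lower (0.18, and -0.03 to 0.41 with 1 array left out), and 0 were free of overlap.

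**Figure D5:**
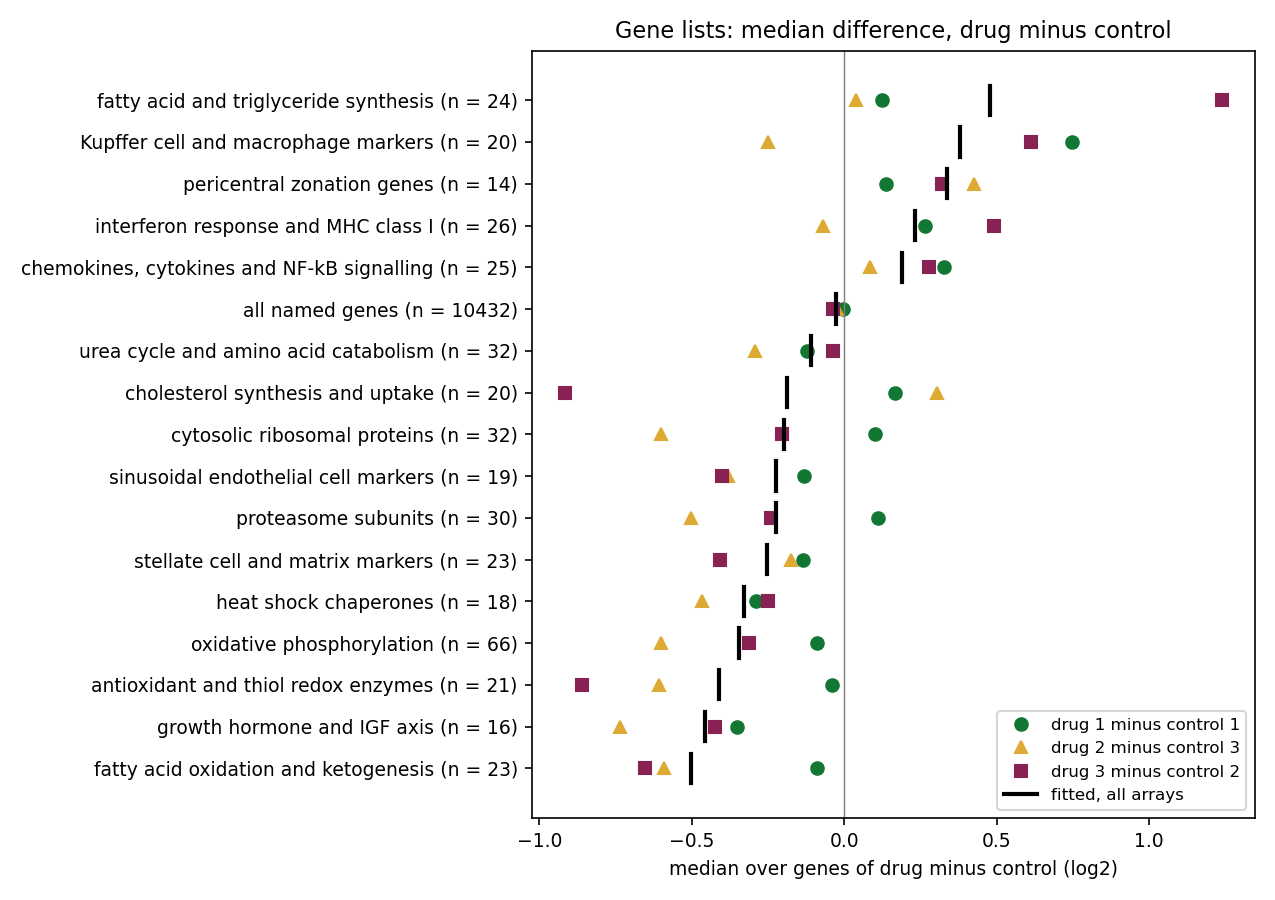
Median over genes of drug minus control (log2) for 16 gene lists and all named genes: black bars for the fit over all arrays, and points for 3 pairs of arrays with like Xist readings (drug 1 with control 1, drug 2 with control 3, drug 3 with control 2); Gapdh ratios are alike in the first pair but not in the others. Heat shock chaperones, the growth hormone axis, oxidative phosphorylation and fatty acid oxidation lie below 0 in each pair. So do the antioxidant, urea cycle, sinusoidal endothelial and stellate cell lists. All named genes do so by little (-0.003, -0.02 and -0.04 in the pairs of drug 1, 2 and 3). Cholesterol synthesis and macrophage markers are among the lists with pairs on either side of 0.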

How the data were processed

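Liver RNA of 9 Wistar rats was labelled with biotin and read on a one-colour Affymetrix rat array, per the labels' protocols. The deposited values are linear signal intensities, 1 per probe set and array, made by the authors with GCOS 1.2 per the submitters' processing notes. The sources used here do not give its settings. Of 31099 probe sets, 57 control sets were left out. Log2 intensities were quantile normalized over all 9 arrays, which removes any difference in total signal, and the 18625 probe sets with a mean not below the 40th percentile went into the fit. Names came from the platform annotation (20826 probe sets with 1 symbol, 436 with several, 9780 with none), and a gene is read by its brightest probe set. Of the 20826, 20758 matched the rat gene table by Entrez identifier.

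limma 3.58.1 (R 4.3.3) fitted all 9 arrays with a term for each group and an intensity trend. Tests were two-sided. The threshold was a p of 0.05 after Benjamini-Hochberg adjustment over the 18625 probe sets. With 3 arrays a group, the number of arrays limits the precision. A gene list is described by its counts and median and was not tested. Named by rule were the 12 higher and 12 lower genes with the smallest unadjusted p among those without overlap, and 2 genes from each of 50 lists. Other genes were chosen after their values were seen. The comparison, the lists and the alternatives were chosen with earlier results of these data known. Promoter windows are RefSeq's (GRCr8). Same-numbered arrays are different rats, and the numbers were treated as names.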

Additional observations from a re-analysis of the deposited data

How the results depend on the processing

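Under all 25 alternatives 0 probe sets passed in limma at an adjusted p under 0.05. Probe sets at an unadjusted p under 0.05 (1345 as reported) numbered 696 without normalization (118 higher), 964 of 1399 higher after scaling to 1 trimmed mean, 3856 with array weights, 2024 with a term for 3 classes of array, 446 without control 2 and drug 3, 2756 without the pair of rats numbered 1, and 729 to 3761 with 1 array left out (729 without drug 3, 742 without drug 2, 893 without control 2, 3761 without drug 1). Probe sets without overlap (2335) numbered 917 without normalization (219 higher), 2194 after scaling to 1 trimmed mean (1290 higher), 3583 without a filter, 1484 with 1 probe set per gene, 4895 without control 2 and drug 3, 9777 without the pair of rats numbered 1, and 3407 to 8012 with 1 control or drug array left out. The count stayed at 2335 with a model array left out, since model arrays do not enter it. Fewer arrays make separation easier by construction. With the replicate number as a block, 2235 probe sets had an unadjusted p under 0.05 (1215 higher) and 0 an adjusted one. The numbers share no rat: deviations of same-numbered control and drug arrays correlated at 0.48, 0.04 and 0.06, and control 2 and 3 correlated best with drug 3 and 2.

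Of 161 genes, 21 changed sign in 41 of 4003 refits, and the cause was not tested. Without normalization, which shifts the median of all by -0.36, these were Sc5d (-0.074), Rpl22 (-0.31), C1s (-0.11), C5 (-0.23), Ddx3x (-0.41), Arg1 (-0.23), Xbp1 (-0.36), Krt18 (-0.39), Itgb3 (-0.033), Myh1 (-0.18) and Csnk1d (-0.30). With median centring they were Rpl22 (-0.022), Ddx3x (-0.12), Xbp1 (-0.068), Krt18 (-0.10) and Csnk1d (-0.011). Array weights turned Clock (0.024), Bhlhe40 (-0.051) and Cpa1 (-0.17), and the Gapdh term turned Myh1 (-0.33), Per1 (0.0011), Csnk1d (-0.15) and Nampt (0.25). Leaving out control 2 and drug 3 turned Per1 (0.44), Rora (0.28) and Csnk1d (-0.044), and leaving out control 1 and drug 1 turned Aurka (0.043) and Clock (0.13). With 1 array left out, 11 genes changed sign, with these ranges: Bhlhe40 -0.26 to 1.12, Wee1 -0.62 to 0.12 and Cpa1 -1.49 to 4.25 (turned without control 2), Clock -0.30 to 0.014 (without drug 1, as was Bhlhe40), Krt18 -0.036 to 0.40, Myh1 -0.11 to 1.11, Csnk1d -0.035 to 0.34 and Usp2 -0.67 to 0.23 (without drug 2, as was Wee1), and Uty -0.41 to 0.090, Per1 -0.997 to 0.59 and Rora -0.55 to 0.0016 (without drug 3). Of 1250 list medians under alternatives, 140 moved by more than the spread between replicate arrays. Signals near the floor of the array, as for Per3 in control livers, give no exact size.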

Other observations

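Cpa1, which codes for the pancreatic digestive enzyme carboxypeptidase A1, divided the livers by the same arrays as Xist and Eif2s3y. Its log2 signal was 0.34 in control 2 and 3.35 in drug 3, the arrays low in Xist, and 10.09 and 9.77 in control 1 and 3, 10.49 and 11.47 in drug 1 and 2, and 10.62, 7.79 and 10.89 in the model livers. Of 16 pancreas markers on the array 4 passed the filter. Among them, the related carboxypeptidase Cpb1 read 4.23, 3.73 and 3.03 in control and 4.75, 4.40 and 4.16 in drug livers, with no array far from the rest. Summed linear signals of the 4 markers came to 45.0 for control 2 and 51.1 for drug 3. In the remaining control and drug livers they came to 907 to 2889, nearly all of it the signal of Cpa1. The sums thus restate Cpa1 and add no other gene. The cause was not tested.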
